A study of Mus musculus with 28 samples.

Results

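In all, 10 heat shock and chaperone genes were followed through sorted thyroid and salivary gland cells of mice: the small heat shock protein gene Hspb1, the Hsp70 genes Hspa1a, Hspa1b, Hspa8 and Hspa5, the Hsp90 genes Hsp90aa1 and Hsp90ab1, the cochaperone genes Dnajb1 and Hsph1, and the chaperonin gene Hspe1. They were taken by name, with earlier results of these data known. By their Ensembl identifiers, 10 of 10 were found among the 47643 gene rows of the count tables. Together they held 14048 of 2263832 reads in genes, or 0.621%. Of the 10 genes, 8 passed the filter on low counts and were tested, while Hspe1 and Hsph1 are described by their levels only.

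The cells were freshly sorted from H2B-GFP mice, which carry green fluorescent protein fused to histone H2B, into a GFP+ and a GFP− fraction. The groups were thyroid GFP+ and thyroid GFP− cells at 3, 6 and 9 months of age (4, 4 and 3 libraries per fraction) and salivary gland GFP+ and salivary gland GFP− cells at 9 months (3 libraries per fraction). The series concerns quiescent cells in the upkeep of the thyroid, and in designs of this kind the histone label thins out as cells divide. The promoter behind the transgene, any labelling schedule and the gating are not given in the sources used here, and neither is whether replicates came from separate animals. The p-values below therefore cover the spread among these libraries and no more.

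Libraries were 3′ mRNA libraries of 507 to 209091 reads in genes, and 6 of 28 held fewer than 10000 reads. Those 6 were thyroid GFP+ replicates 1 and 2 at 3 months and 4 at 6 months, thyroid GFP− replicates 2 at 6 months and 1 at 9 months, and salivary GFP+ replicate 1. A count of 0 allows up to 3 reads, which is 14.3 CPM (a gene's reads scaled to 1000000 reads in genes) in the deepest library and 5917 CPM in the shallowest. Each fraction was a mixture of cells. In thyroid GFP+ libraries the summed CPM of 12 fibroblast markers ran from 5088 to 20614, against 1073 to 9593 in thyroid GFP− libraries, while that of 14 endothelial markers ran from 0 to 3201 in GFP+ and 2138 to 9551 in GFP−, and that of 12 thyrocyte markers from 0 to 4447 and 680 to 9831, with Slc26a4 at 0 in both fractions. Parathyroid, C cell and red cell markers were present in both. In such bulk samples, fewer cells of a type and less RNA per cell cannot be told apart.

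Chaperones bind unfolded proteins and keep them from clumping or help them fold. In the cytosol, heat and other protein-damaging stress release heat shock factor 1, which binds heat shock elements, inverted repeats of GAA and TTC, and switches on Hspa1a, Hspa1b, Hspb1, Dnajb1 and Hsph1, whereas Hspa8 and Hsp90ab1 are made in unstressed cells too. In the endoplasmic reticulum, where secreted proteins such as thyroglobulin fold, Hspa5 (BiP) is the Hsp70, and its promoter answers to the unfolded protein response through ER stress elements. Tissue dissociation and sorting are themselves known to raise heat shock and immediate early transcripts in many tissues.

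RefSeq promoter sequences (GRCm38.p6, 250 bases before to 50 after the start of the gene) were matched for 7 of the 10 genes, all except Hspa8, Hsp90aa1 and Hsp90ab1. The stretch from 140 to 21 bases before the start is shown for 5 of them. It holds the heat shock pattern GAANNTTC (N, any base) in 4 of them and the ER stress element in Hspa5. Dnajb1, also matched, held no match to the heat shock patterns below. Hsph1, also matched, held GAANNTTC only after the start of the gene and is not shown. Within the stretch it held the reverse order TTCNNGAA, at −33, or −54 from its other listed start. Capitals mark GAANNTTC or a longer run of heat shock units in the first 4 sequences and the ER stress element in the last. The windows are Hspb1 at chr5:135887779-135887898 (plus strand), Hspa1a at chr17:34972177-34972296 (minus), Hspa1b at chr17:34959259-34959378 (minus), Hspe1 at chr1:55088008-55088127 (plus) and Hspa5 at chr2:34771950-34772069 (plus).
Hspb1: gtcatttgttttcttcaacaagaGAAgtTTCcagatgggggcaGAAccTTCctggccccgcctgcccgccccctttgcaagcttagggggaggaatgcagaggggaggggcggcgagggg
Hspa1a: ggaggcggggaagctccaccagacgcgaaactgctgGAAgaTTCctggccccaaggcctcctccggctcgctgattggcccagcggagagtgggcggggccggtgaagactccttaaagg
Hspa1b: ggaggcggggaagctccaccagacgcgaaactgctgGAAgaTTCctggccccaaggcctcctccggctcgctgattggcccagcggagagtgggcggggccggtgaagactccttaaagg
Hspe1: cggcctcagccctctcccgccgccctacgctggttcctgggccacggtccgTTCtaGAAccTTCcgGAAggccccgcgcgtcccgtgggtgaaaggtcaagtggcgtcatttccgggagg
Hspa5: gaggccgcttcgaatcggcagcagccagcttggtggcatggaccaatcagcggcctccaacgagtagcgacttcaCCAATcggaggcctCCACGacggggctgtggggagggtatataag

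The heat shock pattern GAANNTTC, searched on both strands, was present in the promoters of 5 of 7 genes (Hspb1, Hspa1a, Hspa1b, Hspe1 and Hsph1), and in 7.86% of all 32851 promoters in the table. The reverse order TTCNNGAA was present in 2 of 7 (Hspe1 and Hsph1) and in 8.52% of all promoters. The longer run of GAANNTTC followed by NNGAA, which overlaps these shorter patterns, was present in Hspe1 and Hsph1 and in 0.603% of all promoters. Hspb1 held GAANNTTC at positions −117 and −97, and Hspa1a and Hspa1b held it at −104. The ER stress element, CCAAT and CCACG with 9 bases of any kind between them, was found in Hspa5 alone, from −65 to −47, where it overlaps a CCAAT box, and in 0.119% of all promoters. CCAAT was present in 5 of 7 and in 37.4% of all promoters, and TATAAA in 0 of 7 and in 13.6%. The promoters of Hspa1a and Hspa1b differed at 4 of 300 bases and at 0 of 120 bases of the stretch shown. The genes are near-copies, so the counting may have divided their reads arbitrarily, and their summed reads are given as well.

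**Figure D1:**
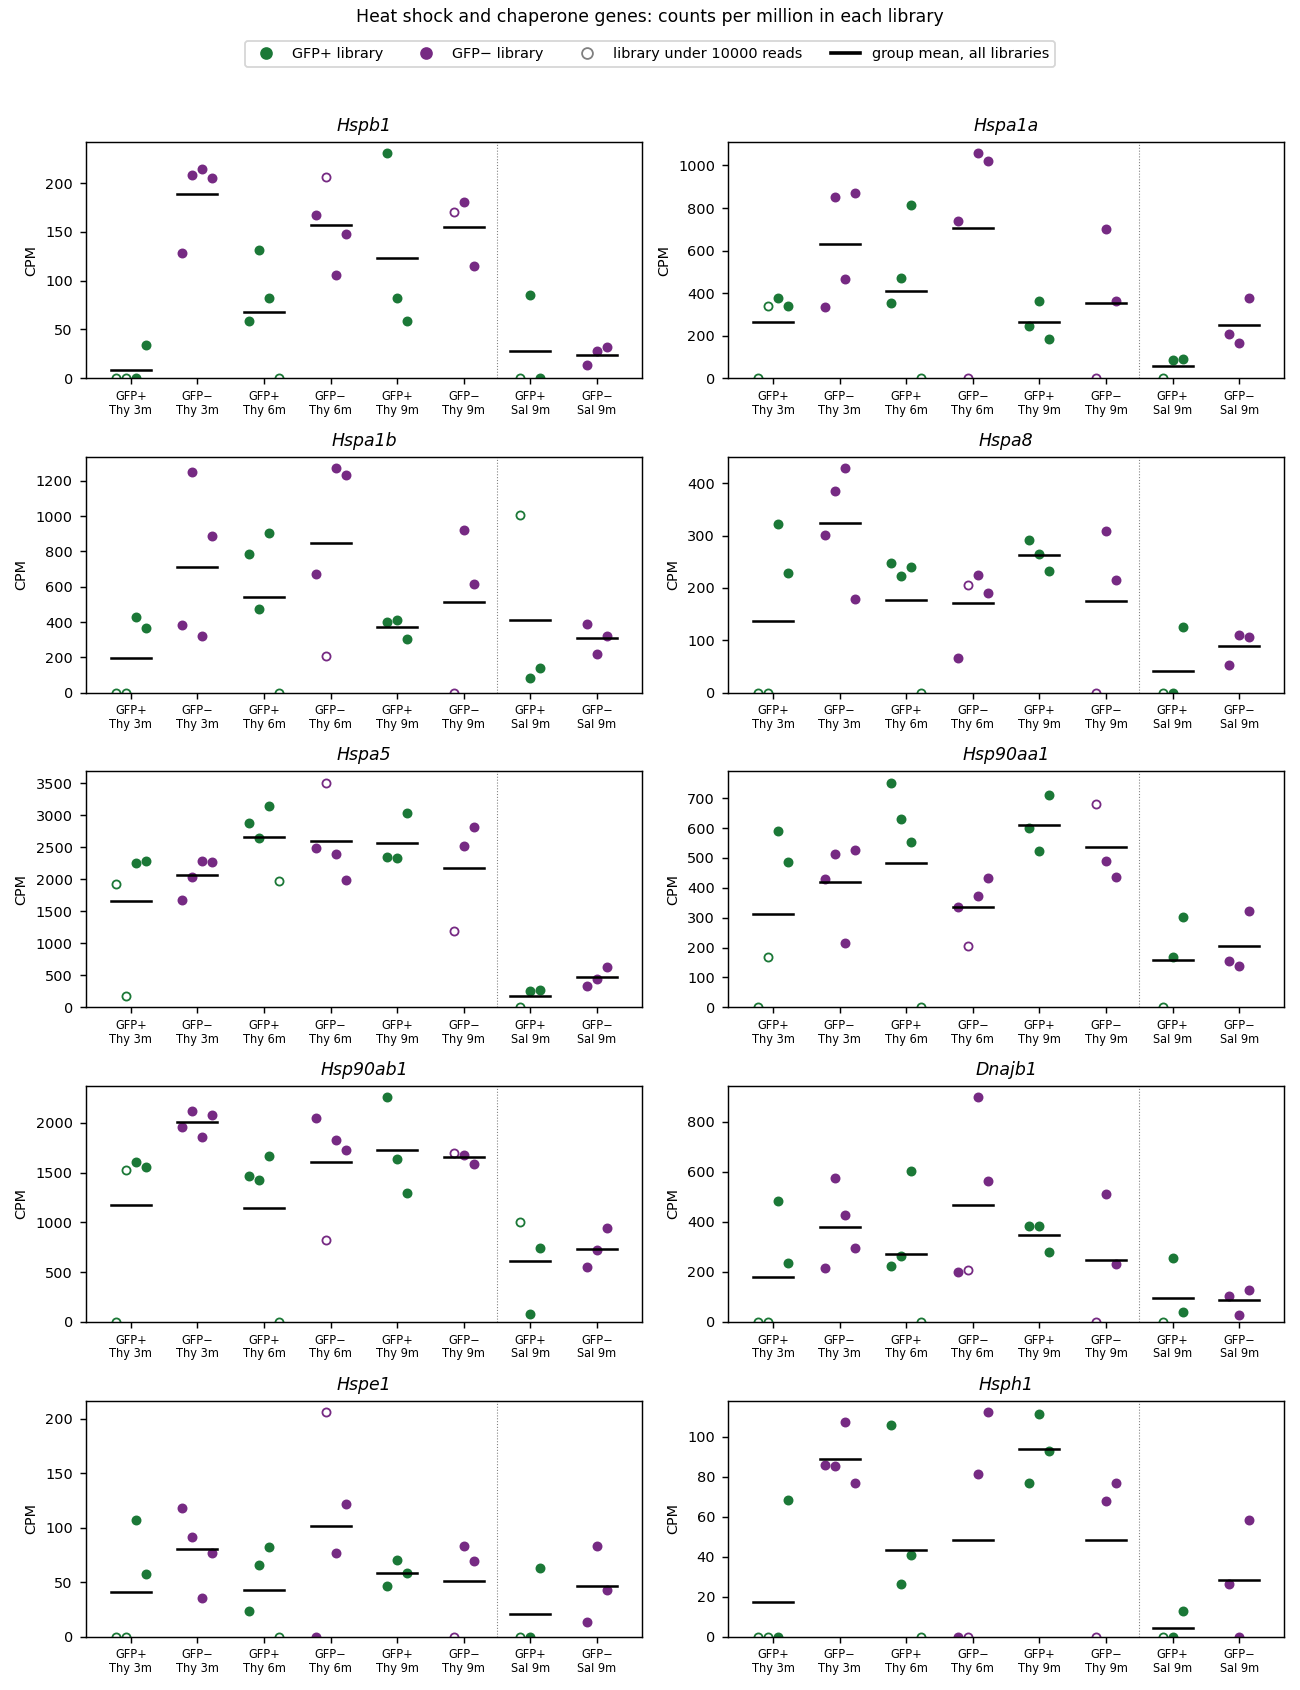
CPM (linear axes) of the 10 heat shock and chaperone genes in each of 28 libraries, by GFP fraction, gland (Thy, thyroid; Sal, salivary) and age in months; open circles are libraries under 10000 reads and bars are group means over all libraries. Hspb1 lies between 0 and 34.3 CPM in thyroid GFP+ libraries at 3 months and between 129 and 215 CPM in thyroid GFP− libraries at 3 months, and Hspa5 is 254 and 265 CPM in the deeper salivary GFP+ libraries against 2326 CPM or more in thyroid GFP+ libraries at 9 months.

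Read numbers within the set differed widely. Hspa5 held 4761 reads over all libraries (33.9% of the reads of the set) and ranked 19th among all genes, and Hsp90ab1 held 3542 reads (25.2%, rank 30). Hspa1b followed with 1535 reads, Hspa1a with 1240, Hsp90aa1 with 1046, Dnajb1 with 867 and Hspa8 with 511. The lowest were Hspb1 with 233 reads, Hsph1 with 157 and Hspe1 with 156. Counts from 3′ libraries come from transcript ends and were not divided by length. Hspb1 and Hsph1 lie on chromosome 5, Hspa1a, Hspa1b and Hsp90ab1 on chromosome 17, Hspa5 on chromosome 2, Hspa8 on chromosome 9, Hsp90aa1 on chromosome 12, Dnajb1 on chromosome 8 and Hspe1 on chromosome 1. The 10 genes summed to 5327 ± 2208 CPM in thyroid GFP+ cells and 6672 ± 1331 CPM in thyroid GFP− cells (SD, n = 11 each).

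Between thyroid GFP+ and GFP− cells, averaged over the 3 ages, Hspb1, Hspa1a and Hspa1b fell in GFP+ cells and no heat shock gene rose. That is 3 of 8 genes tested called lower, where 8.79% of the 1900 genes tested were called lower with 11.4% called higher and 20.2% in either direction (edgeR's quasi-likelihood test, Benjamini-Hochberg adjusted p under 0.05). Hspa1a and Hspa1b are near-copies that may share reads, so their calls may not be independent. Their summed reads were also called (edgeR adjusted p = 0.0471). Among the 321 genes with at least 20 counts in 50% of libraries, which leave out Hspb1, 19% were called lower. Of the 8 genes, 7 had negative log2 fold changes, and their median was −0.60, against −0.08 over all genes tested. The stress-inducible small heat shock protein and the inducible Hsp70 pair were thus the called genes. The ER Hsp70, the constitutive Hsp70 and Hsp90ab1 were not called, and neither were the inducible Hsp90aa1 and Dnajb1. Under DESeq2, which called 3.47% of genes lower, 0 of 8 were called, with the fold changes of these 3 still negative.

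Hspb1 encodes a small heat shock protein (Hsp25, the mouse counterpart of HSP27) that holds unfolding proteins in soluble complexes and binds actin filaments. At 3 months it had 0, 0, 0 and 34.3 CPM in the 4 thyroid GFP+ libraries, against 129, 208, 215 and 205 CPM in the 4 thyroid GFP− libraries. The CPM of the fractions did not overlap at this age. Singly, however, the 3 GFP+ libraries at 0 allow up to 1921, 509 and 161 CPM. The 34.3 CPM rest on 6 reads in the deepest GFP+ library of that age (95% exact Poisson interval 12.6 to 74.6 CPM, counting error only), which lies under every GFP− library. The 3 GFP+ libraries at 0 held 26097 reads in all, which allows up to 115 CPM over them. Pooled over these, Hspb1 was thus at least 1.63-fold lower than the pooled 187 CPM of GFP− cells, again with counting error only.

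At 6 months Hspb1 had 58.8, 131, 81.8 and 0 CPM in thyroid GFP+ libraries, against 168, 206, 105 and 147 CPM in thyroid GFP− libraries. At 9 months it had 230, 82.2 and 58.1 CPM in thyroid GFP+ libraries, against 170, 181 and 115 CPM in thyroid GFP− libraries. At both later ages most GFP+ libraries were lower but the fractions overlapped, and GFP+ replicate 1 at 9 months was the highest of all. Over the 3 ages the fitted log2 fold change of GFP+ over GFP− was −1.45 (SE 0.43, edgeR adjusted p = 0.00555). At 3 months it was −3.06 (SE 0.86, edgeR adjusted p = 0.0072), the one heat shock gene called at that age, where 9.74% of all genes were called and 4.74% were called lower. At 6 and 9 months it was −0.86 and −0.42 (edgeR adjusted p = 0.595 and 0.989).

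The change of this Hspb1 difference with age was itself not called: the GFP+ over GFP− log2 fold change was 2.64 higher at 9 than at 3 months and 2.20 higher at 6 than at 3 months (edgeR, unadjusted p = 0.0471, adjusted p = 0.9999). Without the libraries under 10000 reads, the Hspb1 log2 fold change was −1.36 over the 3 ages (edgeR adjusted p = 0.00495) and −2.85 at 3 months (edgeR adjusted p = 0.00933). The call over the 3 ages was lost under DESeq2 (−1.06, adjusted p = 0.194), without a filter on low counts (−1.36, adjusted p = 0.170), and without thyroid GFP− replicate 2 at 9 months when the filter was applied anew (−1.26, adjusted p = 0.0700). The call at 3 months was lost under DESeq2 (−2.24, adjusted p = 0.167) and without a filter (−3.13, adjusted p = 0.186). Over the 3 ages endothelial markers were called lower in GFP+ cells in 10 of 11 tested, C cell markers in 3 of 3, parathyroid markers in 4 of 4, red cell markers in 4 of 4 and thyrocyte markers in 3 of 5, while fibroblast markers were called higher in 12 of 12 and pericyte and smooth muscle markers in 3 of 5. At 3 months, the age of the Hspb1 call, these were 9 of 11, 3 of 3, 3 of 4, 4 of 4 and 0 of 5 lower, and 10 of 12 and 2 of 5 higher. Their part in the result was not tested.

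Hspa1a and Hspa1b encode the stress-inducible Hsp70, which refolds damaged proteins with the help of J-domain cochaperones. In libraries of at least 10000 reads, Hspa1a ran from 186 CPM (median 358) to 813 CPM in 8 thyroid GFP+ libraries, against 332 CPM (median 737) to 1057 CPM in 9 thyroid GFP− libraries. Hspa1b ran from 302.3 CPM (median 420) to 905 CPM in the GFP+ libraries, against 322 CPM (median 884) to 1272 CPM in the GFP− libraries. For both genes the GFP+ median lay below the GFP− median and the ranges overlapped. By age, Hspa1b had 429 and 366 CPM in GFP+ libraries of that depth at 3 months, against 386, 1247, 322 and 884 CPM in GFP− libraries. At 6 months it had 788, 472 and 905 CPM in GFP+ libraries, against 670, 1272 and 1230 CPM in GFP− libraries. At 9 months it had 399, 411 and 302.3 CPM in GFP+ libraries, against 920 and 614 CPM in GFP− libraries, the one age at which these libraries did not overlap for Hspa1b.

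Over the 3 ages the log2 fold change of GFP+ over GFP− was −1.07 for Hspa1a (SE 0.39, edgeR adjusted p = 0.0321) and −1.12 for Hspa1b (SE 0.40, edgeR adjusted p = 0.0289). With the reads of both summed to 1 row it was −1.11 (SE 0.43, edgeR adjusted p = 0.0471). Without the libraries under 10000 reads it was −1.05 for each, with edgeR adjusted p = 0.000705 for Hspa1a and 0.000542 for Hspa1b, and 3 of 8 heat shock genes were called lower, where 8.95% of all genes were. Neither gene was called at a single age: at 3 months the log2 fold changes were −1.52 for Hspa1a and −1.75 for Hspa1b (edgeR adjusted p = 0.156 and 0.0987), at 6 months −0.92 and −0.79 (0.514 and 0.622), and at 9 months −0.78 and −0.80 (0.904 and 0.895). All 6 values were negative. The calls over the 3 ages were lost under DESeq2 (−0.70 and −0.80, adjusted p = 0.265 and 0.206) and without a filter on low counts (adjusted p = 0.422 and 0.387), and that of Hspa1a was lost under DESeq2 size factors in edgeR (−0.75, adjusted p = 0.0567). Both calls were also lost in edgeR with a replicate block.

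Single libraries decided the Hsp70 calls more often than the Hspb1 call. Each of the Hspa1a and Hspa1b calls was lost in 9 of 22 fits that left out 1 library, against 0 of 22 for Hspb1 with the tested genes held fixed. For Hspa1a these were GFP− replicates 2 and 4 at 3 months, 3 and 4 at 6 months and 2 at 9 months, and GFP+ replicates 1 and 2 at 6 months and 1 and 3 at 9 months. For Hspa1b they were GFP− replicates 2 and 4 at 3 months, 3 and 4 at 6 months and 2 and 3 at 9 months, and GFP+ replicates 2 at 6 months and 2 and 3 at 9 months. Over all 22 fits the log2 fold change ran from −1.28 to −0.86 for Hspa1a and from −1.32 to −0.95 for Hspa1b, so the sign was negative in each. For Hspb1 it ran from −2.76 to −1.35, with −2.76 reached without GFP+ replicate 4 at 3 months, the one GFP+ library of that age with Hspb1 reads. Without it all GFP+ libraries at 3 months are at 0, and the fitted −7.00 at that age depends on the prior count and is no bound.

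Dnajb1, the J-domain cochaperone that delivers clients to inducible Hsp70, ran from 0 CPM (median 262) to 604 CPM in 11 thyroid GFP+ libraries, against 0 CPM (median 294.8) to 899 CPM in 11 thyroid GFP− libraries. The fractions overlapped, and the highest values were in GFP− replicate 3 at 6 months and GFP+ replicate 3 at 6 months. Its log2 fold change over the 3 ages was −0.63 (edgeR adjusted p = 0.269), on the same side as the Hsp70 pair but not called. Under a stricter filter on low counts, with 321 genes tested, it was called lower over the 3 ages (−0.74, adjusted p = 0.0320, where 19% of those genes were called lower) and at 6 months (−1.18, adjusted p = 0.0479, where 8.1% were). Hsph1, the Hsp110 protein that exchanges the nucleotide of Hsp70, was too low to test. It had 0, 0, 0 and 68.6 CPM in thyroid GFP+ libraries at 3 months, against 85.8, 85.6, 107 and 76.9 CPM in GFP− libraries. At 9 months it had 76.8, 112 and 93.0 CPM in GFP+ libraries, against 0, 67.9 and 76.8 CPM in GFP− libraries. The 3 GFP+ libraries at 0 at 3 months allow up to 115 CPM over their 26097 reads, and the 68.6 CPM have an exact Poisson interval of 35.4 to 120 CPM, so a difference at 3 months was not detectable at this depth.

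Hspa8, the constitutive Hsp70 (Hsc70), ran from 223 CPM (median 244) to 322 CPM in 8 thyroid GFP+ libraries of at least 10000 reads, against 67.0 CPM (median 225) to 429 CPM in 9 GFP− libraries. The GFP+ values lay within the GFP− range. Its log2 fold change over the 3 ages was −0.31 (SE 0.37, edgeR adjusted p = 0.684). Hspa5, the ER Hsp70, ran from 2253 CPM (median 2498) to 3140 CPM in the GFP+ libraries, against 1673 CPM (median 2289) to 2819 CPM in the GFP− libraries. These ranges overlapped for most of their length, and the log2 fold change was −0.31 (SE 0.45, edgeR adjusted p = 0.754). Hspe1, the mitochondrial cochaperonin Hsp10, ran from 23.5 CPM (median 61.8) to 107 CPM in the GFP+ libraries, against 0 CPM (median 76.9) to 121 CPM in the GFP− libraries, and was not tested. Pseudogene copies of Hspe1 are known in the mouse genome, so its counts are uncertain.

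The Hsp90 pair differed in its values. Hsp90ab1, the constitutive cytosolic Hsp90, ran from 1291 CPM (median 1582) to 2258 CPM in 8 thyroid GFP+ libraries of at least 10000 reads, against 1582 CPM (median 1860) to 2116 CPM in 9 GFP− libraries. Hsp90aa1, the inducible form, ran from 486 CPM (median 595) to 752 CPM in the GFP+ libraries, against 215 CPM (median 433) to 525.5 CPM in the GFP− libraries. GFP+ libraries were thus mostly lower for Hsp90ab1 and mostly higher for Hsp90aa1, with overlap in both. Neither was called: the log2 fold change over the 3 ages was −0.56 for Hsp90ab1 (SE 0.44, edgeR adjusted p = 0.461) and 0.04 for Hsp90aa1 (edgeR adjusted p = 0.972), or −0.40 and 0.23 without the libraries under 10000 reads (adjusted p = 0.0925 and 0.535).

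**Figure D2:**
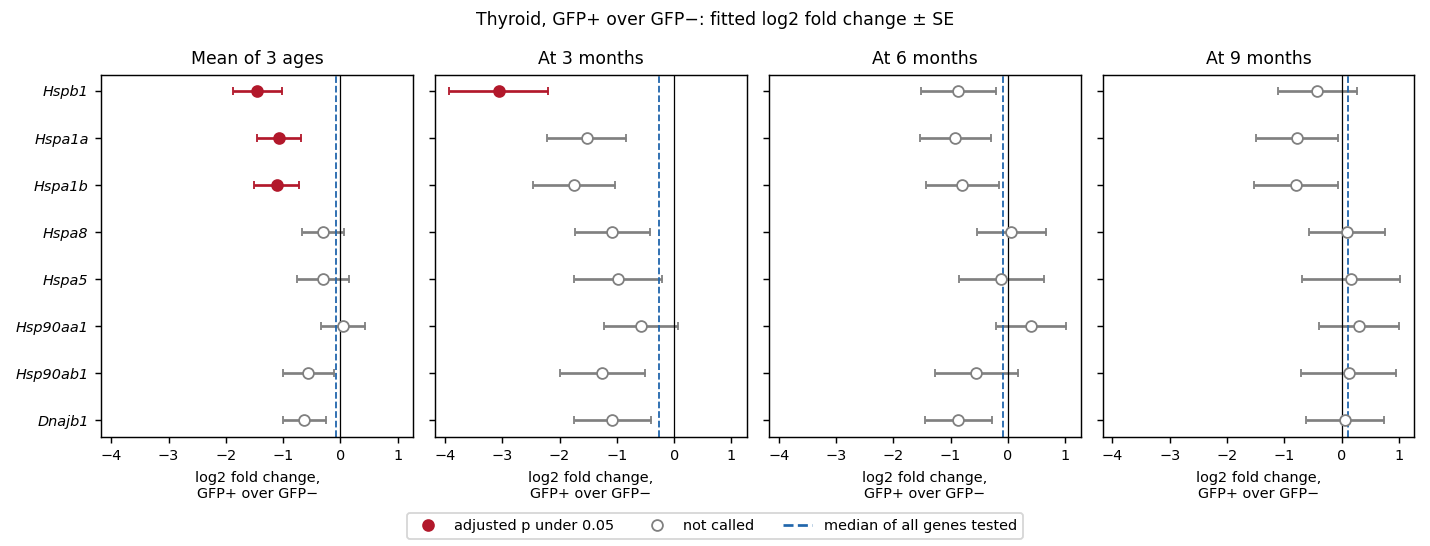
Fitted log2 fold change of thyroid GFP+ over GFP− cells (points) with its SE (bars) for the 8 heat shock genes tested, as the mean of the 3 ages and at each age; filled points have an edgeR adjusted p under 0.05 and the dashed line is the median of the 1900 genes tested. Hspb1, Hspa1a and Hspa1b are called over the 3 ages, Hspb1 alone at 3 months, and none at 6 or 9 months, and 8 of 8 genes are below 0 at 3 months.

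These directions depend on how libraries are scaled, so they are also given relative to the whole table. The median log2 fold change of all genes was −0.08 with TMM factors (the trimmed mean scaling used throughout), where 56.4% of the genes called were higher in GFP+ cells, and 0.22 with DESeq2 size factors in edgeR, where 70.7% of them were. Relative to that median, Hspb1 was at −1.37 with TMM and −1.42 with DESeq2 size factors, Hspa1a at −0.99 and −0.97, Hspa1b at −1.03 and −1.04, and Dnajb1 at −0.55 and −0.57. Hsp90ab1 was at −0.48 and −0.42, Hspa5 at −0.23 and −0.19, Hspa8 at −0.23 and −0.23, and Hsp90aa1 at 0.13 and 0.12. Thus 7 of 8 genes lay below the median of all genes under both scalings. The raw sign of Hspa5 turned, from −0.31 to 0.03, between the scalings.

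Shares within the set do not depend on library scaling. In libraries of at least 10000 reads, Hsp90aa1 made up 21.0% (median 25.9%) to 35.5% of the reads of the Hsp90 pair in 8 thyroid GFP+ libraries, against 10.3% (median 19.5%) to 22.6% in 9 thyroid GFP− libraries. Over all libraries with Hsp90 reads the ranges were 10 to 35.5% in GFP+ and 10.3 to 28.6% in GFP− libraries. At 3 months the share was 23.8 to 26.8% in 2 GFP+ libraries against 10.3 to 20.2% in 4 GFP− libraries. At 6 months it was 24.9 to 33.9% in 3 GFP+ libraries against 14.1 to 20.1% in 3 GFP− libraries. These libraries did not overlap at either age. Below that depth, however, GFP+ replicate 2 at 3 months had 10% of 10 Hsp90 reads, under the GFP− libraries of that age. At 9 months the ranges overlapped, at 21.0 to 35.5% in GFP+ libraries and 21.7 to 22.6% in GFP− libraries. The inducible genes Hspa1a and Hspa1b made up 67.7% (median 75.0%) to 87.7% of the reads of the cytosolic Hsp70 genes (these and Hspa8) in GFP+ libraries, against 64.7% (median 84.5%) to 95.5% in GFP− libraries. Hspa5 made up 34.2% (median 39.6%) to 48.6% of the reads of all 10 genes in GFP+ libraries, against 25.1% (median 30.4%) to 43.2% in GFP− libraries. Taken over the ages, each of these shares overlapped between the fractions, and the shares are descriptions with no test.

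**Figure D3:**
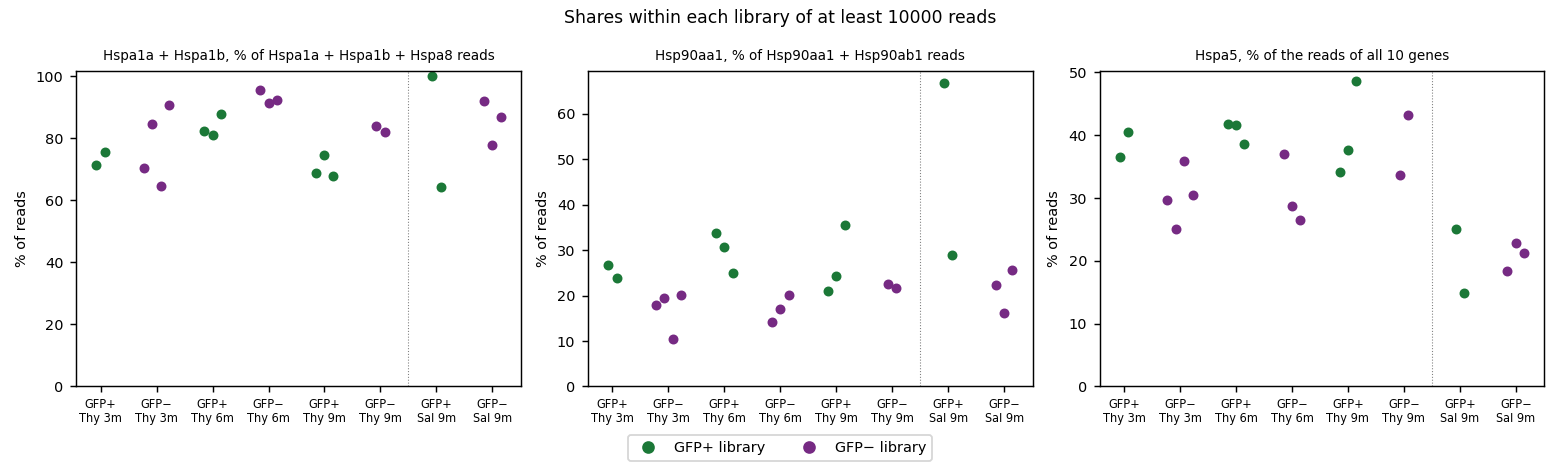
Percent of reads within each library of at least 10000 reads: Hspa1a and Hspa1b among the cytosolic Hsp70 reads (left), Hsp90aa1 among the Hsp90 reads (middle) and Hspa5 among the reads of all 10 genes (right), by GFP fraction, gland (Thy, thyroid; Sal, salivary) and age in months. In the middle panel the thyroid GFP+ libraries at 3 and 6 months (23.8 to 33.9%) lie above the thyroid GFP− libraries of those ages (10.3 to 20.2%), and the highest salivary GFP+ point rests on 3 reads.

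At 3 months, 8 of 8 genes tested had negative log2 fold changes of GFP+ over GFP−, with a median of −1.17 against −0.26 over all genes tested. Without the libraries under 10000 reads 8 of 8 were still negative at 3 months, but Hspa5 was at −0.20 in place of −0.98, Hsp90aa1 at −0.08 in place of −0.58 and Dnajb1 at −0.60 in place of −1.08. At 6 months 6 of 8 were negative, with a median of −0.67 against −0.08, and at 9 months 3 of 8, with a median of 0.07 against 0.11. At 6 months 0 of 8 were called, where 7.11% of all genes were, and at 9 months 0 of 8, where 1.89% were. At an unadjusted p under 0.05, edgeR gave 3 of 8 genes at 3 months, where it gave 21.4% of all genes, 0 of 8 at 6 months (17.1% of all genes) and 0 of 8 at 9 months (8.89%). Under the stricter filter, where 9.35% of genes were called lower at 3 months, Hspa1a (−1.40, adjusted p = 0.0464) and Hspa1b (−1.63, adjusted p = 0.0161) were called at 3 months and Hspa1a at 6 months (−1.23, adjusted p = 0.0414). Hspb1 was dropped by that filter and not tested under it. The interaction of GFP fraction with age was called for 0 of 8 genes and for 0.158% of all genes (edgeR; at an unadjusted p under 0.05, for Hspb1 alone of the 8 and 4.68% of all genes).

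With age, no heat shock gene was called within either thyroid fraction. The 10 genes summed to 3988, 5839 and 6431 CPM (means) in GFP+ cells at 3, 6 and 9 months, and to 6891, 7029 and 5906 CPM in GFP− cells. In libraries of at least 10000 reads these means were 5914, 7128 and 6431 CPM in GFP+ cells and 6891, 7515 and 6989 CPM in GFP− cells. In GFP+ cells 8 of 8 genes had positive log2 fold changes of 9 over 3 months (median 0.78, against 0.30 over all genes tested), and 0 of 8 were called, where 1.58% of all genes were (edgeR; 0 of 8 and 7.32% of all genes at an unadjusted p under 0.05). Hspb1 was the farthest from 0, at 2.17 for 9 over 3 months and 1.81 for 6 over 3 months (edgeR unadjusted p = 0.0526, adjusted p = 0.704). In GFP− cells 8 of 8 were negative (median −0.42, against −0.06), and 0 of 8 were called, where 1.53% of all genes were (edgeR; 0 of 8 and 13.2% of all genes unadjusted). Without the libraries under 10000 reads, 7 of 8 were positive in GFP+ cells and 5 of 8 negative in GFP− cells, and Hspb1 in GFP+ cells was at 2.02, with the other 7 between −0.21 and 0.39. Within GFP+ cells 7 of 8 genes lay above the median of all genes with TMM factors and with DESeq2 size factors. The libraries at 3 months enter both these values and the comparison of GFP+ with GFP− cells at that age.

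The 10 genes summed to 1604 ± 521 CPM in salivary GFP+ cells and 2252 ± 617 CPM in salivary GFP− cells at 9 months (SD, n = 3 each). GFP+ replicate 1 held only 2 reads of the set. In the 2 GFP+ libraries of at least 10000 reads the mean was 1399 CPM. Of the heat shock genes, 0 of 8 were called between GFP+ and GFP− cells, and 0% of the 974 genes tested were (edgeR; 96 genes and 1 of the 8, Hspa1a, at an unadjusted p under 0.05). Hspa1a had 0, 84.8 and 88.4 CPM in salivary GFP+ libraries, against 209, 166 and 376 CPM in salivary GFP− libraries. The fractions did not overlap, but the 84.8 CPM are 1 read and the library at 0 held 993 reads. Its log2 fold change was −1.85 (edgeR unadjusted p = 0.0415, adjusted p = 0.496). The 8 genes had a median of −1.02, against −0.89 over all genes tested, so they lay near the rest of the table. Between the glands, the difference of GFP+ over GFP− in thyroid from that in salivary gland was called for 0 of 8 genes and 0% of all genes (edgeR; 0 of 8 and 86 genes unadjusted).

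Hspa5, which held the most reads of the set, lay far lower in salivary gland in CPM, with no scaling factor applied. The reads in genes behind CPM include ribosomal RNA genes. These held 53.4 to 63.8% of them in salivary and 28.3 to 35.1% in thyroid GFP+ libraries at 9 months. In GFP− libraries they held 38.9 to 60.4% and 31.1 to 55.4%, and their part in the result was not tested. In GFP+ cells at 9 months Hspa5 had 2350, 2326 and 3035 CPM in thyroid libraries, against 0, 254 and 265 CPM in salivary libraries. In GFP− cells it had 1190, 2511 and 2819 CPM in thyroid libraries, against 339, 443 and 631 CPM in salivary libraries. The glands did not overlap in either fraction, and the ratio of mean CPM, thyroid over salivary, was 14.8 in GFP+ cells and 4.61 in GFP− cells, or 9.90 and 5.66 in libraries of at least 10000 reads. In salivary GFP+ cells the value of 0 comes from a library of 993 reads, where a count of 0 allows up to 3021 CPM, and the 254 CPM rest on 3 reads. For Hspb1 the thyroid GFP− libraries (115 to 181 CPM) lay above the salivary GFP− libraries (13.1 to 31.8 CPM), while the glands overlapped in GFP+ cells, at 58.1 to 230 CPM in thyroid and 0 to 84.8 CPM in salivary libraries. Hsp90ab1 did not overlap in either fraction, at 1291 to 2258 CPM in thyroid against 84.8 to 1007 CPM in salivary GFP+ libraries and 1582 to 1700 CPM against 548 to 944 CPM in GFP− libraries. The salivary GFP+ values of 84.8 and 1007 CPM are 1 read each. In CPM, 7 of 10 heat shock genes lay higher in thyroid than in salivary GFP+ libraries without overlap, as did 75.8% of the 974 genes tested, and 4 of 10 in GFP− libraries, as did 35.9%. In libraries of at least 10000 reads this was 8 of 10 against 78.9% in GFP+ cells and 8 of 10 against 81.5% in GFP− cells. The share of the set was thus near that of all genes.

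The fitted gland differences turned on the scaling. With TMM factors 0 of 8 genes were called in GFP+ cells, where 14.4% of all genes were, and 0 of 8 in GFP− cells, where 14.2% were (edgeR; at an unadjusted p under 0.05, 0 of 8 in each, with 33.5% of all genes in GFP+ cells and 24.2% in GFP− cells). Hspa5 had a log2 fold change of thyroid over salivary of 1.75 in GFP+ cells (SE 1.09, edgeR adjusted p = 0.254) and 0.41 in GFP− cells (adjusted p = 0.872). With DESeq2 size factors in edgeR it was 3.39 (adjusted p = 0.000768) and 1.90 (adjusted p = 0.0270). That scaling called 4 of 8 genes in GFP+ cells (Hspb1, Hspa5, Hsp90ab1 and Dnajb1) and 2 of 8 in GFP− cells (Hspb1 and Hspa5), where 72.7% and 51.4% of the 974 genes were called. DESeq2 called Hspa5 and Hsp90ab1 in GFP+ cells, where 57.7% of genes were called, and Hspa5 in GFP− cells, where 37.3% were. DESeq2 size factors in edgeR moved the median of all genes to 2.81 from 1.15 with TMM in GFP+ cells and to 1.60 from 0.17 in GFP− cells. Relative to the median of all genes, 6 of 8 members lay below it in each fraction under both scalings. The thyroid libraries held 0 to 338 CPM of 11 salivary acinar and duct markers at 9 months, against 2014 to 90622 CPM in salivary libraries, and their part in the result was not tested.

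**Figure D4:**
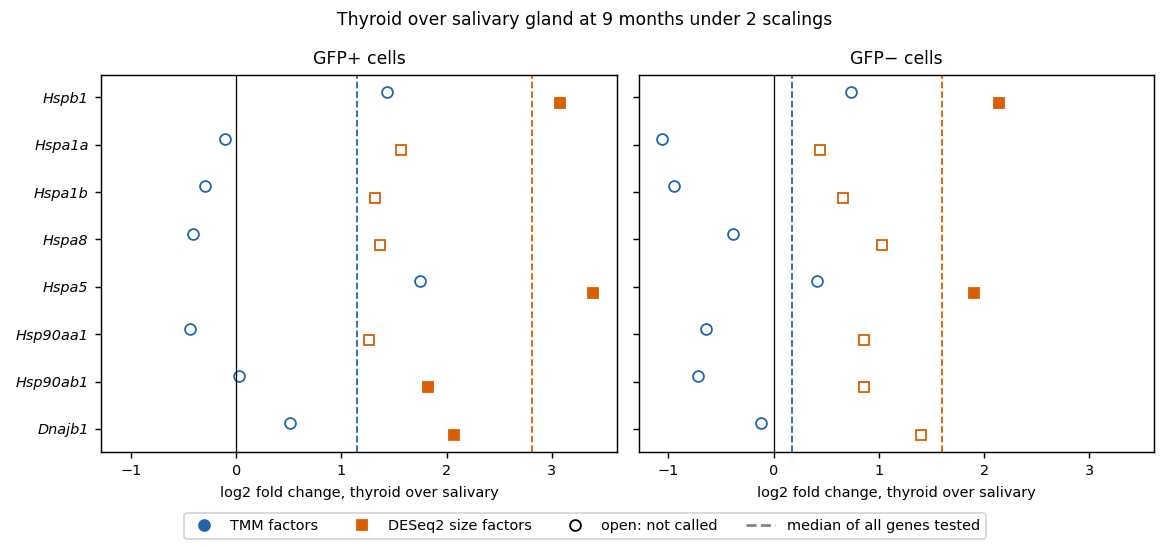
Fitted log2 fold change of thyroid over salivary gland at 9 months for the 8 heat shock genes tested, in GFP+ cells (left) and GFP− cells (right), with TMM factors (circles) and DESeq2 size factors (squares) in edgeR; filled symbols have an adjusted p under 0.05 and dashed lines are medians of the 974 genes tested. Hspa5 moves from 1.75 to 3.39 in GFP+ cells between the scalings and the median of all genes from 1.15 to 2.81.

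Among themselves, Hspa1a, Hspa1b and Dnajb1 had high correlations. Over 17 thyroid libraries of at least 10000 reads, with log2 CPM centred on the mean of each group, Pearson's r was 0.78 for Hspa1a with Hspa1b, 0.75 for Hspa1a with Dnajb1, 0.65 for Hspa1b with Dnajb1 and 0.80 for Hspa8 with Dnajb1. Over the 14 libraries of at least 50000 reads these were 0.78, 0.78, 0.72 and 0.69. Hspb1 stood apart from them, with r of 0.30 for Hspa1a, 0.06 for Hspa1b and 0.12 for Dnajb1, and 0.62 for Hsp90ab1. Hspa5 had r between 0.01 and 0.33 with the other 7 genes. Hsp90aa1 had r of 0.06 with Hsp90ab1, 0.14 with Dnajb1 and 0.26 with Hspa1a. With the mean of 16 immediate early genes, r was 0.74 for Hsp90aa1 and 0.61 for Hspa1b over the 17 libraries, but 0.19 and 0.33 over the 14 deeper ones. These are descriptions: the points share libraries and depth, and Hspa1a and Hspa1b may share reads.

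**Figure D5:**
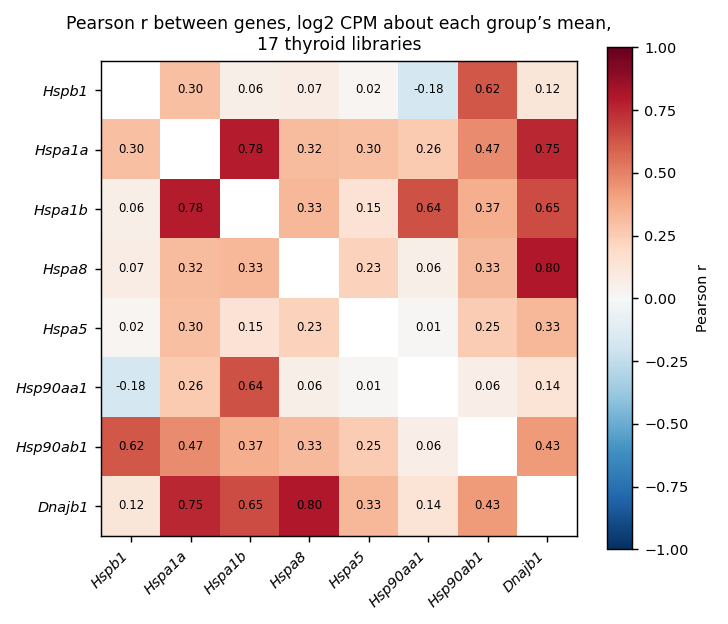
Pearson's r between the 8 heat shock genes tested, over 17 thyroid libraries of at least 10000 reads, from log2 CPM centred on the mean of each group of age and fraction. Hspa1a, Hspa1b and Dnajb1 have r of 0.65 to 0.78 with one another, and Hspb1 has 0.62 with Hsp90ab1 and −0.18 with Hsp90aa1.

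The genes whose centred level was most like the mean of the 8 members over the same 17 libraries were Spp1 (r = 0.914), Pla2g7 (0.913), Tomm7 (0.902), Lmbrd1 (0.890) and Lgmn (0.884). Over the 14 libraries of at least 50000 reads their r was 0.889, 0.919, 0.843, 0.835 and 0.818. They were picked as the highest of the 1900 genes tested, less the 8 members, and libraries and depth are shared by all points.

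Of 96 other genes of the heat shock and folding pathways, 95 were in the table and 38 were tested in the thyroid. Over the 3 ages 1 of 38 was called higher and 1 of 38 lower in GFP+ cells, where 11.4% of all genes were called higher and 8.79% lower, and the median of the 38 log2 fold changes was −0.19 (−0.08 over all genes tested). Hspa2, an Hsp70 abundant in testis, fell: it ran from 0 CPM (median 31.2) to 286 CPM in 8 thyroid GFP+ libraries of at least 10000 reads, against 53.6 CPM (median 167) to 429 CPM in 9 GFP− libraries. Its log2 fold change was −1.73 over the 3 ages (SE 0.46, edgeR adjusted p = 0.00169) and −2.62 at 3 months (edgeR adjusted p = 0.0492), and both calls were lost under DESeq2, DESeq2 size factors in edgeR and without a filter. The call at 3 months was also lost in 14 of 22 fits that left out 1 library (GFP− replicates 2, 3 and 4 at 3 months, 3 and 4 at 6 months and 2 at 9 months, and GFP+ replicates 2, 3 and 4 at 3 months, 1, 2 and 3 at 6 months and 2 and 3 at 9 months), while that over the 3 ages was kept in 22 of 22. In addition, 1 GFP+ library under 10000 reads had 1921 CPM of Hspa2. Hspb8, a small heat shock protein that works with the cochaperone Bag3, rose: it ran from 148 CPM (median 310.7) to 522 CPM in the GFP+ libraries, against 0 CPM (median 89.7) to 168 CPM in the GFP− libraries, where the ranges overlapped little. In addition, 1 GFP− library under 10000 reads had 826 CPM. The Hspb8 log2 fold change was 1.14 (SE 0.39, edgeR adjusted p = 0.0223), and the call was lost under DESeq2, without a filter and in 5 of 22 fits without 1 library (GFP− replicates 2 at 3 months, 3 and 4 at 6 months and 3 at 9 months, and GFP+ replicate 3 at 3 months). Hspb1 and Hspb8, both small heat shock proteins, thus had opposite signs.

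Hspa2 was 1 of 2 other cytosolic Hsp70 and Hsp110 genes tested, and Hspb8 the 1 other small heat shock protein gene tested. At 6 and 9 months, with age in either fraction and in the interaction with age, 0 of the 38 genes were called. The other pathway lists held no called gene over the 3 ages. Of the ER chaperones and folding enzymes 0 of 11 tested were called (median −0.21), of the J-domain cochaperones 0 of 6 (−0.34), of the TRiC chaperonin subunits 0 of 6 (0.20), of the Hsp90 cochaperones 0 of 4 (−0.53), of the unfolded protein response factors 0 of 3 (−0.66) and of the BAG and nucleotide exchange factors 0 of 3 (0.29). The heat shock factor genes and their regulators had 1 gene tested of 5, and the mitochondrial chaperones 1 of 8, with 0 called. Immediate early genes, which also rise on tissue handling, had 1 of 16 called (Ier2, lower in GFP+ cells, −1.06, edgeR adjusted p = 0.0289) and summed to 3945 CPM (median 14326) to 20870 CPM in 11 thyroid GFP+ libraries, against 8158 CPM (median 15523) to 20307 CPM in 11 GFP− libraries. The fractions overlapped in that sum, and its part in the result was not tested. The Ier2 call was lost without the libraries under 10000 reads (−0.97, adjusted p = 0.0624), under DESeq2, with DESeq2 size factors in edgeR, without a filter and when any single one of GFP− replicates 2 at 3 months, 4 at 6 months and 2 at 9 months or GFP+ replicates 2 at 6 months and 3 at 9 months was left out.

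Between the glands 1 of 20 pathway genes tested was called in GFP+ cells, where 14.4% of all genes were, and 1 of 20 in GFP− cells, where 14.2% were. Serpinh1, the collagen chaperone Hsp47, was higher in thyroid than in salivary GFP+ cells at 9 months (edgeR adjusted p = 0.00894): it ran from 323 to 875 CPM in 3 thyroid libraries and was at 0 in 3 salivary libraries, which is at least 20.7-fold higher in thyroid with 3 reads allowed over the 92013 salivary reads. This call was lost without salivary GFP+ replicate 3, which holds most of those reads, and without a filter on low counts. Fibroblast markers summed to 14160 to 20198 CPM in those thyroid libraries and to 0 to 763 CPM in the salivary ones, and their part in the result was not tested. P4hb, a protein disulfide isomerase, was called lower in thyroid than in salivary GFP− cells (−2.12, edgeR adjusted p = 0.0476), but its CPM overlapped, at 143 to 510 in thyroid and 222 to 413 in salivary libraries, and the call was lost with DESeq2 size factors in edgeR (−0.71, adjusted p = 0.309), under DESeq2, without a filter and when any single one of thyroid GFP− replicates 2 and 3, salivary GFP− replicate 3 or thyroid GFP+ replicates 2 and 3 was left out.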

How the data were processed

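The deposited values are whole-number read counts per Ensembl gene for each library, from 3′ mRNA libraries (QuantSeq) of sorted cells, per the labels' protocols. The submitters' processing notes name the genome build mm9 and bcl2fastq; the aligner, the counter and its use of strand are not given in the sources used here. Of the 47643 gene identifiers, 47224 were matched to names from GENCODE vM21 and 419 were not. The 5 summary rows of each table were left out of library sizes and tests; reads without a feature were 13.3 to 85.8% of each library's counted reads, and ribosomal RNA genes held 25.1 to 63.8% of the reads in genes. Of 36 pairs of libraries within groups, 0 were identical.

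Genes with low counts were dropped with edgeR's filterByExpr defaults (minimum count 10, total 15). edgeR 4.0.16 (with limma 3.58.1, R 4.3.3) fitted quasi-likelihood models with TMM factors and robust estimation to the 22 thyroid libraries (6 groups, 1900 genes) and to the 12 libraries at 9 months (4 groups, 974 genes), with Benjamini-Hochberg adjustment over all genes tested and a threshold of 0.05. The thyroid comparison over ages averages the fold changes at 3, 6 and 9 months. TMM factors ran from 0.574 to 10.7 in the thyroid and from 0.232 to 7.11 at 9 months. The procedure was tested on simulated data. The alternatives tried were DESeq2 1.42.0, edgeR with size factors from DESeq2, no filter, a stricter filter (20 counts in 50% of libraries), a replicate block, and leaving out single libraries, libraries under 10000 reads or ribosomal RNA rows. Summing Hspa1a with Hspa1b, and applying the filter again after each library left out, were chosen after seeing the data.

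CPM are counts scaled to 1000000 reads in genes, with no factor applied. Intervals and the floor of 3 counts cover counting error only, and reads are not independent molecules. The members and lists were chosen with earlier results of these data known. All 10 members were named in every comparison; from each pathway list the called genes were named, up to 4 by adjusted p; the 5 genes most alike were those with the highest Pearson correlation of centred log2 CPM (prior count 2). Promoters came from RefSeq (GRCm38.p6), matched by symbol; no coordinates of the count tables were used.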

Additional observations from a re-analysis of the deposited data

Results flagged for a closer look

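Among the 10 genes in the 4 groups of 4 thyroid libraries, 7 of 40 pairs of gene and group held 1 library far from the other 3 (Dixon's ratio above 0.829), where chance gives about 1 in 20. In thyroid GFP+ replicate 1 at 3 months, Hsp90ab1 was at 0 CPM, against 1526 to 1610 CPM in the other 3 libraries, and Hspa1a was at 0 CPM, against 337 to 376 CPM. In thyroid GFP+ replicate 4 at 6 months, Hsp90ab1 was at 0 CPM, against 1428 to 1667 CPM, and Hspa8 was at 0 CPM, against 223 to 247 CPM. These libraries held 1562 and 507 reads in genes, where a count of 0 allows up to 1921 and 5917 CPM, so these 4 values lie within what that depth allows.

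The other 3 values stood in libraries of 93270 and 174957 reads. Hspb1 was at 129 CPM in thyroid GFP− replicate 1 at 3 months, against 205 to 215 CPM in the other 3 libraries. In thyroid GFP+ replicate 4 at 3 months Hspb1 was at 34.3 CPM and Hsph1 at 68.6 CPM, with the other 3 libraries at 0 for both genes. That library is the deepest of its group. In the other 3 libraries a count of 0 allows up to 1921, 509 and 161 CPM, above both values. The flags of Hspb1 and Hsph1 in this group thus also lie within what depth allows.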

How the results depend on the processing

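Of 3 members called over the 3 ages between thyroid GFP+ and GFP− cells, 0 were called under DESeq2, 0 without a filter on low counts and 1 (Hspb1, −1.68, adjusted p = 0.0187) with a replicate block. Of 1 called at 3 months (Hspb1), 0 were called under DESeq2 and 0 without a filter. The stricter filter dropped Hspb1, which was not tested there, and called 2 other members, Hspa1a and Hspa1b. At 6 months the stricter filter called 2, against 0. Between thyroid and salivary GFP+ cells 0 were called with TMM factors, 2 under DESeq2 and 4 with its size factors in edgeR; in GFP− cells these were 0, 1 and 2. Leaving out 1 library gave 1 to 3 members over the 3 ages, or 0 to 3 with the filter applied again (0 without GFP− replicate 2 at 9 months), 1 to 2 at 3 months (Hspa1b joined without GFP+ replicate 4 at 3 months, −2.34, adjusted p = 0.0345) and 0 to 0 elsewhere. For 88 pairs of member and comparison, 88 kept their side of the threshold, and any call its direction, when libraries under 10000 reads were left out, and likewise when ribosomal RNA genes were. Where calls were lost, the cause was not tested. Over all genes the block called 188 over the 3 ages, against 383. Whether the replicate numbers pair libraries was not settled. Of same-numbered pairs across fractions 5 of 14 had r over 0.1 (−0.09 to 0.35), against 2 of 40 across ages and 0 of 12 across glands. Pairs with different numbers within a gland and age were not compared. Depth limits Hspe1 and Hsph1, with 156 and 157 reads, to descriptions, and DESeq2's size factors in the thyroid rest on the 17 genes with reads in every library.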
